A study of Mus musculus with 14 samples.

Results

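The amyloid precursor protein and the proteases that cut it were followed through RNA-seq of the mouse dorsal hippocampus. The set was chosen by gene name and holds 9 genes, 9 of the 25933 genes listed in the learning experiment and 9 of the 26570 listed in the basal experiment: App and its paralogs Aplp1 and Aplp2, the alpha-secretase Adam10, the beta-secretase Bace1, the gamma-secretase subunits Psen2, Ncstn and Psenen, and Itm2b. All 9 genes passed the filter on low counts in both experiments, so that no member was lost. The lowest raw count of any member in any library was 446, for Psen2.

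All mice were males aged 8 months on a C57BL6 background, either WT or heterozygous THY-Tau22, a line that expresses mutated human Tau in neurons from the Thy1.2 promoter and carries no App or presenilin transgene. The basal experiment compared untrained mice left in their home cage (WT 3 libraries, THY-Tau22 2 libraries). In the learning experiment the WT mice received saline and were either kept in the home cage (WT VEH_HC, 3 libraries) or given spatial training in the Morris water maze (WT VEH, 2 libraries). The trained THY-Tau22 mice received the carbon nanosphere carrier CSP (TAU VEH, 2 libraries) or CSP-TTK21, an activator of the histone acetyltransferases CBP and p300 coupled to that carrier (TAU MOL, 2 libraries). Since TAU VEH mice received CSP and WT VEH mice saline, genotype and carrier cannot be told apart in comparisons between them. The 9 learning libraries held 24693713 to 52180305 counts and the 5 basal libraries 28639121 to 37681155. The labels number the libraries without naming mice, so that p-values measure the spread between libraries. Thy1, whose promoter drives the transgene, was at 1805 to 2352 CPM in the 6 THY-Tau22 libraries and at 786 to 913 CPM in the 8 WT libraries, so each library matched its labelled genotype. Levels are given as CPM, the gene's read count after scaling every library to the same total size with edgeR's TMM factors.

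App is a membrane protein of neurons with a large ectodomain. Cleavage by alpha-secretase releases a soluble ectodomain and cuts within the Abeta stretch, whereas cleavage by beta-secretase leaves a membrane stub from which gamma-secretase liberates Abeta, the peptide of Alzheimer plaques. Aplp1 and Aplp2 pass through the same proteases but contain no Abeta stretch. Gamma-secretase is a complex of a catalytic presenilin (here Psen2), nicastrin (Ncstn), Pen-2 (Psenen) and Aph-1 (Aph1a or Aph1b). Itm2b, or BRI2, binds App and hinders its cleavage. The model studied here builds Tau pathology, not plaques, and the transcripts describe the mouse's own genes.

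In the mm9 annotation App (ENSMUSG00000022892) lies on chromosome 16 from 84954685 to 85173952, Aplp1 (ENSMUSG00000006651) on chromosome 7 from 31220001 to 31230580, and Aplp2 (ENSMUSG00000031996) on chromosome 9 from 30957142 to 31019400. Adam10 (ENSMUSG00000054693, 70526804 to 70628036) and Bace1 (ENSMUSG00000032086, 45646663 to 45672482) lie on chromosome 9 as well. Psen2 (ENSMUSG00000010609, 182157135 to 182193569) and Ncstn (ENSMUSG00000003458, 173996144 to 174012926) lie on chromosome 1, Psenen (ENSMUSG00000036835, 31346887 to 31348203) on chromosome 7 near Aplp1, and Itm2b (ENSMUSG00000022108, 73762038 to 73785078) on chromosome 14. The reads do not mark strand. Bace1 shares 22.6% of its exon bases with Rnf214 on the opposite strand, and Ncstn shares 4.91% with Copa, so part of their reads cannot be assigned to a gene with certainty. The exons of the members differ widely in base composition, from Aplp1 with 60.4% G and C, at the 96.1 percentile of the genes tested, to Adam10 with 41.5%, at the 9.26 percentile.

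The sequences upstream of 4 members are shown because these genes span the measured differences: Aplp1 and Psen2, which were lower in TAU VEH mice, App, whose values overlapped, and Adam10, whose values lay higher. Each window is the 250 bases before the RefSeq gene start in GRCm38.p6, on the gene's strand and 5′ to 3′, and capitals mark the GC box GGGCGG or the CRE core TGACG, searched on both strands with overlapping copies counted. The windows are chr7:30445583-30445832 (Aplp1), chr1:180256301-180256550 (the first of the 2 Psen2 starts), chr16:85173708-85173957 (App) and chr9:70678732-70678981 (Adam10).
Aplp1: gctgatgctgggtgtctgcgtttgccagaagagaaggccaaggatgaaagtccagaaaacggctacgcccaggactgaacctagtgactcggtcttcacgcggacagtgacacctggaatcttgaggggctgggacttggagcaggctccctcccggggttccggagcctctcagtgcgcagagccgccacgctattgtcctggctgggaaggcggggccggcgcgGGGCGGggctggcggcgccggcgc
Psen2: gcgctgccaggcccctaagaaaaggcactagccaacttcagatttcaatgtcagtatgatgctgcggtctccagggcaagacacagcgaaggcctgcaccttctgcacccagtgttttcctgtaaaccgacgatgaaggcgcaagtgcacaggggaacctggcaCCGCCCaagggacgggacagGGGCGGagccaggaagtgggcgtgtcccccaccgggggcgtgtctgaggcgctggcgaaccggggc
App: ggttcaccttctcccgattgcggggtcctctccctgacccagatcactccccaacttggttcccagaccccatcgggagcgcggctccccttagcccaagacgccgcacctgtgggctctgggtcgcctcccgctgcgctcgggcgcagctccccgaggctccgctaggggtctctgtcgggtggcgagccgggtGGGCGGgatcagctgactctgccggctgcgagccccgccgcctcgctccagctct
Adam10: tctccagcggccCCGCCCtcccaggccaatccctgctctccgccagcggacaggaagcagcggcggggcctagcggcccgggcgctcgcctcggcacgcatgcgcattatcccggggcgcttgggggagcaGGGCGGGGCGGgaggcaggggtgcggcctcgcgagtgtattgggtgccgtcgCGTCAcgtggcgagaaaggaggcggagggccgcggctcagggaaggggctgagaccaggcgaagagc
RefSeq gave 10 such windows for 8 of the 9 members, and Bace1 had no entry. A GC box was found in 6 of these 10 windows and in 32.7% of all 32851 windows of the table. A CRE core was found in 3 windows (Ncstn, Adam10 and 1 of the 2 of Psenen) and in 17.8% of all windows. The full CRE TGACGTCA, present in 1.55% of all windows, and TATAAA, present in 12.4%, were found in 0 of the 10. The windows of the members had from 44.8% to 74.0% G and C, against a median of 52.4% over all windows.

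Per kilobase of exon, the scale on which genes can be compared, the App family and Itm2b were far more abundant than the secretase genes. In the learning experiment Aplp1 had a median of 1050 CPM per kilobase over the 9 libraries, App 567, Itm2b 352 and Aplp2 155, and the ranges of these 4 genes did not overlap. Psenen followed with 40.3 CPM per kilobase, then Ncstn with 18.4, Bace1 with 18.1, Adam10 with 11.9 and Psen2 with 4.91. Ncstn (15.8 to 20.9) and Bace1 (17.6 to 20.6) overlapped and so had no order between them. The level of Bace1 is also less certain, since it shares 22.6% of its exon bases with Rnf214. In the basal libraries the order was the same for the 5 most abundant genes, while Ncstn, Bace1 and Adam10 overlapped, with ranges of 14.4 to 16.2, 15.4 to 16.7 and 12.1 to 16.3. For App, Aplp2, Bace1 and Itm2b the highest library of an experiment was at most 1.29 times the lowest. Aplp1 varied most, by 1.85 times over the basal and 1.48 times over the learning libraries.

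**Figure D1:**
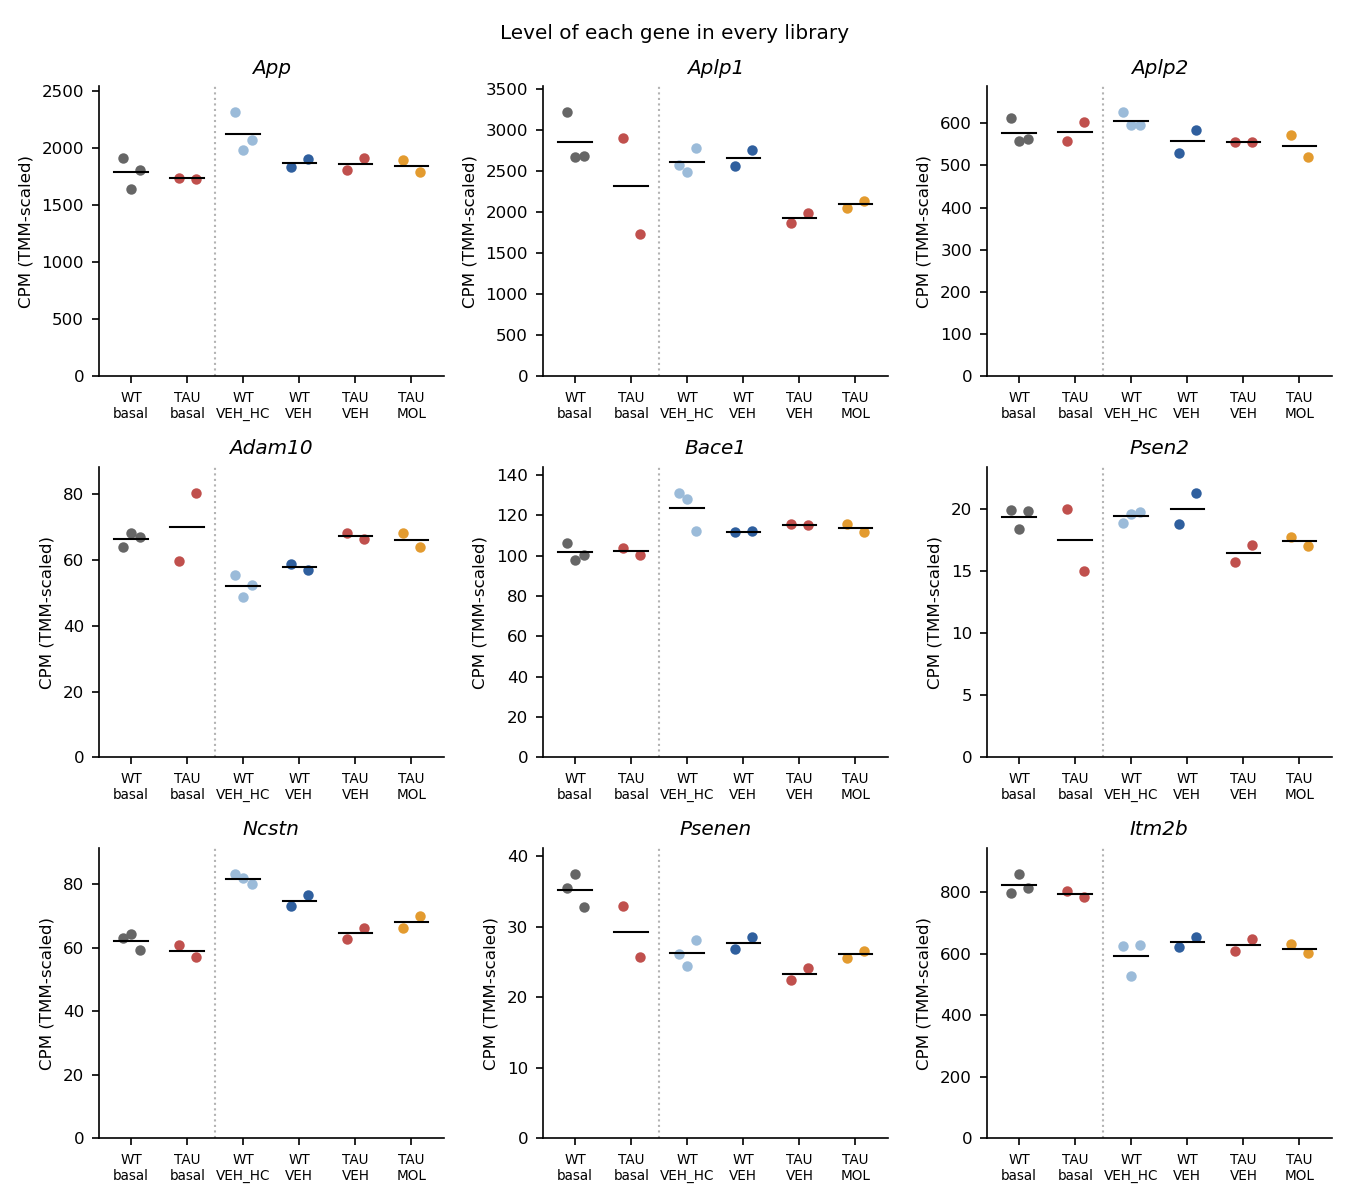
Level of the 9 genes in every library, in TMM-scaled CPM on axes that start at 0. Points are libraries, bars are group means and the dotted line separates the basal from the learning experiment. Aplp1 lay between 1871 and 2137 CPM in the 4 trained THY-Tau22 libraries and between 2487 and 2776 CPM in the 5 WT libraries of the learning experiment.

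The comparison of TAU VEH with WT VEH asks how the trained hippocampus of THY-Tau22 mice differed from that of trained WT mice. Aplp1, the neuronal paralog of App, fell by 27.5%, and Psen2, a catalytic subunit of gamma-secretase, fell by 18.2% with an adjusted p just inside the limit. App, Aplp2, Bace1 and Itm2b differed by 3.15% or less. Calls required an adjusted p under 0.05 and a log2 fold change beyond 0.2 in either direction (edgeR quasi-likelihood test, Benjamini-Hochberg adjustment over 16820 genes). These 2 of 9 members stand beside 14.4% of all genes called, 10.8% lower and 3.61% higher. With library size alone in place of the TMM factors all genes shifted by a median of 0.15 on the log2 scale, and the calls turned from 608 higher and 1815 lower to 2578 higher and 1020 lower. The median log2 fold change was -0.02 over the members and 0.0041 over all genes.

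Aplp1 was at 1871 and 1984 CPM in the TAU VEH libraries and at 2564 and 2755 CPM in the WT VEH libraries. The groups did not overlap, and the home cage WT libraries, with 2567, 2487 and 2776 CPM, lay with the WT VEH libraries. The means were 1928 ± 79.5 CPM (SD, n = 2) in TAU VEH and 2659 ± 135 CPM (SD, n = 2) in WT VEH, a log2 fold change of -0.46 (SE 0.07, 95% interval -0.62 to -0.30, adjusted p = 0.0019 in edgeR and 4.3e-07 in DESeq2). App itself was at 1812 and 1912 CPM in TAU VEH and at 1839 and 1903 CPM in WT VEH. These values overlapped, and the log2 fold change was -0.01 (95% interval -0.18 to 0.16). In bulk tissue fewer cells of a type and less RNA per cell cannot be told apart. The ratio of Aplp1 to App within a library, in CPM, was 1.03 and 1.04 in TAU VEH against 1.39 and 1.45 in WT VEH. Of the App family per kilobase, Aplp1 made up 53.4% and 53.8% in the TAU VEH and 61.0% and 61.6% in the WT VEH libraries. Aplp2, the most widely expressed of the 3 genes, was at 554 and 555 CPM in TAU VEH, between the 529 and 585 CPM of WT VEH.

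Among the gamma-secretase subunits, Psen2 was at 15.8 and 17.1 CPM in TAU VEH and at 18.8 and 21.2 CPM in WT VEH, without overlap. Its log2 fold change was -0.29 (SE 0.09, 95% interval -0.49 to -0.10, adjusted p = 0.0494 in edgeR), and the call was lost in DESeq2 (adjusted p = 0.0915) and when any of 7 of the 9 libraries was left out. With library size alone the log2 value was -0.14 (adjusted p = 0.27 in edgeR). Ncstn, the nicastrin that receives the substrate, was at 62.9 and 66.4 CPM in TAU VEH and at 73.1 and 76.7 CPM in WT VEH. The groups did not overlap, but the adjusted p of 0.0572 in edgeR missed the limit at a log2 difference of -0.21 (95% interval -0.36 to -0.07). Psenen, which is needed for the maturation of the complex, was at 22.5 and 24.2 CPM in TAU VEH and at 26.9 and 28.6 CPM in WT VEH. Its log2 difference was -0.25 (95% interval -0.44 to -0.06, adjusted p = 0.0772 in edgeR). Libraries of the 2 groups did not overlap for any of the 3 subunits, as was the case for 57.9% of all genes.

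Adam10, the main alpha-secretase of neurons, was the member with the highest value relative to WT VEH, at 68.2 and 66.5 CPM in TAU VEH against 58.7 and 57.0 CPM. Its log2 difference of 0.22 (SE 0.08, 95% interval 0.05 to 0.39) had an adjusted p of 0.0817 in edgeR and 0.0485 in DESeq2, which called 14.8% of all genes, so that the call depended on the tool. In edgeR it was called with library size alone (log2 value 0.37, adjusted p = 0.0103) and with only the groups compared (0.23, adjusted p = 0.0305). Bace1, the neuronal beta-secretase, was at 116 and 115 CPM in TAU VEH and at 112 CPM in both WT VEH libraries, a log2 difference of 0.04 (95% interval -0.13 to 0.21). The ratio of Adam10 to Bace1, in CPM, was 0.589 and 0.579 in TAU VEH against 0.525 and 0.509 in WT VEH. Itm2b was at 610 and 649 CPM in TAU VEH and at 623 and 654 CPM in WT VEH, which overlapped.

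**Figure D2:**
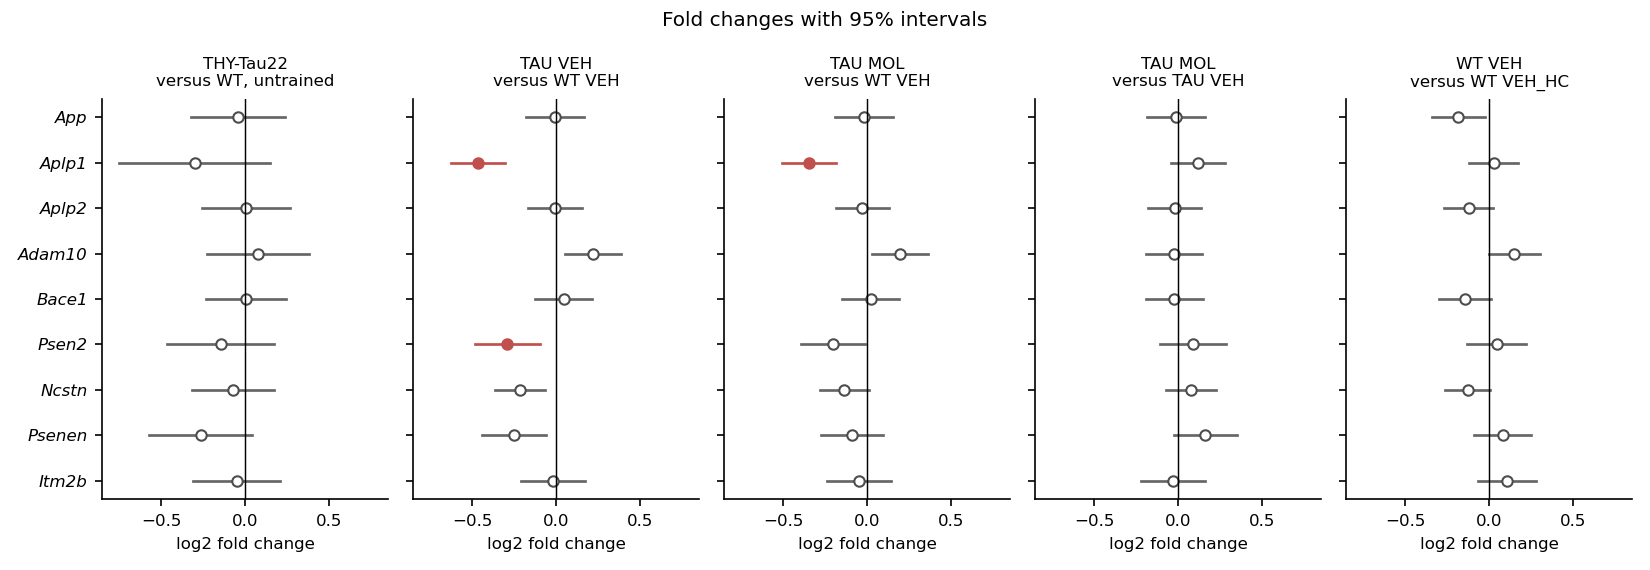
Log2 fold change of each gene (points) with its 95% interval (lines) from the edgeR fits, 1 panel per comparison. Filled red points passed the limits on adjusted p and fold change and open points did not: these were Aplp1 and Psen2 in TAU VEH versus WT VEH and Aplp1 in TAU MOL versus WT VEH.

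The libraries differed in how their counts depended on the G and C content of genes, and the fold changes of Aplp1, Psen2 and Adam10 were smaller after a correction for it. For each library the log2 ratio of every gene to its mean over the experiment was set against G and C content. Spearman's rho, which is across genes and so not over independent replicates, was -0.62 and -0.41 in TAU VEH, -0.40 and -0.47 in TAU MOL, 0.085 and 0.28 in WT VEH and 0.41 to 0.45 in WT VEH_HC. In the basal experiment it was 0.48 and -0.60 in the THY-Tau22 and 0.067 to 0.32 in the WT libraries. The 5 libraries below 0 were those with the lowest Aplp1, at 1734 to 2137 CPM, whereas the other 9 were at 2487 CPM or more.
When each library was corrected for G and C content and exon length, the log2 fold change of Aplp1 in TAU VEH versus WT VEH was -0.13 (95% interval -0.28 to 0.02, adjusted p = 0.36 in edgeR). That of Psen2 was -0.17 (adjusted p = 0.34) and that of Adam10 0.08 (adjusted p = 0.69), and 0 of the 9 members were called, beside 2.77% of all genes. Ncstn, with 50.0% G and C near the median of 50.0% over all genes, kept its size at -0.24 (95% interval -0.39 to -0.10, adjusted p = 0.0775 in edgeR). The call of Aplp1 thus depended on whether this correction was made. In the learning experiment rho was below 0 in all 4 THY-Tau22 and above 0 in all 5 WT libraries, so the dependence on G and C content and the genotype cannot be told apart there.

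**Figure D3:**
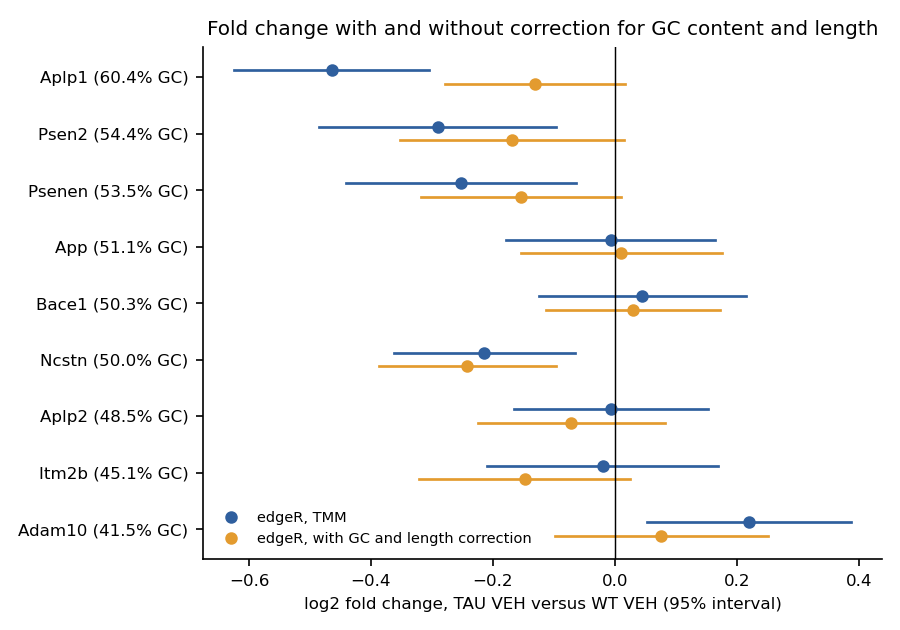
Log2 fold change of the 9 genes in TAU VEH versus WT VEH with 95% intervals, from the edgeR fit with TMM factors (blue) and from the same fit with correction for G and C content and exon length (orange), ordered by the G and C content of the exons. Aplp1 moved from -0.46 to -0.13 and Adam10 from 0.22 to 0.08, while Ncstn stayed at -0.21 and -0.24.

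**Figure D4:**
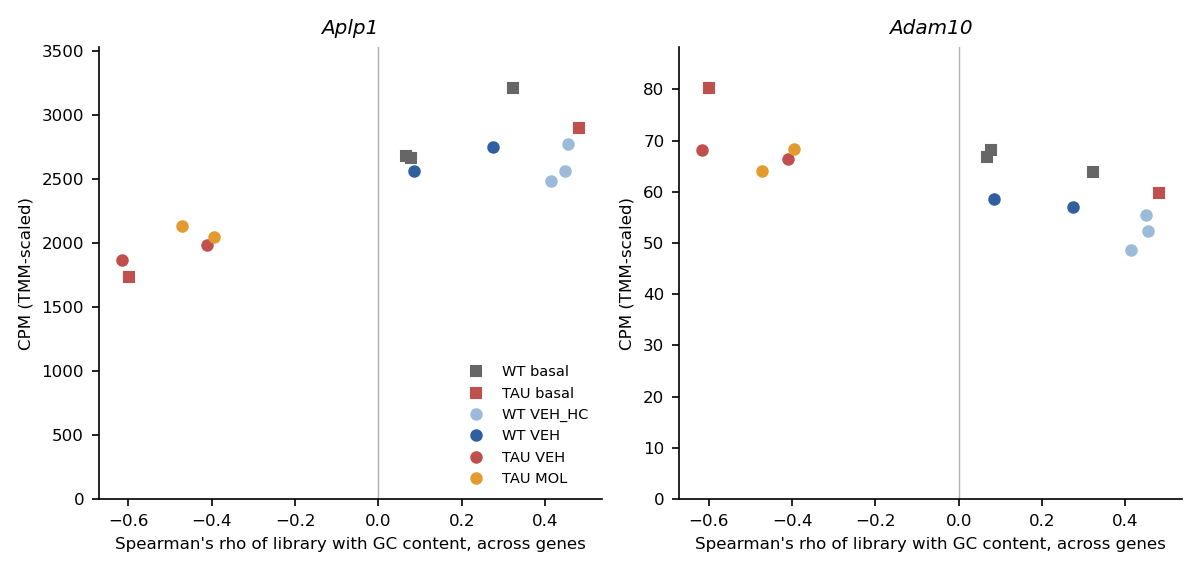
TMM-scaled CPM of Aplp1 and Adam10 in all 14 libraries against Spearman's rho, across genes, between the G and C content of a gene and its log2 ratio to its own mean over the experiment. Squares are basal and circles learning libraries. The 5 libraries with a rho below 0, 4 of them trained THY-Tau22 and 1 untrained THY-Tau22, had Aplp1 at 1734 to 2137 CPM, below all others, and Adam10 at 64.1 to 80.3 CPM, a range that 2 untrained WT libraries (68.2 and 66.9 CPM) shared.

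The comparison of TAU MOL with WT VEH uses the same WT VEH libraries, so it is not independent of the one above. Aplp1 fell by 21.3%, from 2564 and 2755 CPM in WT VEH to 2050 and 2137 CPM in TAU MOL, a log2 fold change of -0.35 (SE 0.07, 95% interval -0.51 to -0.19, adjusted p = 0.0219 in edgeR). It was the only one of the 9 members called, against 5.63% of all genes (103 higher and 844 lower, or 757 higher and 326 lower with library size alone). Over the 9 fits that each left out 1 library the log2 value of Aplp1 ran from -0.39 to -0.29, and the call was lost without WT VEH replicate 1 or 2 or TAU MOL replicate 1 or 2. It was also lost with library size alone (log2 value -0.22, adjusted p = 0.0678 in edgeR) and with the correction for G and C content (-0.12). Psen2, at 17.8 and 17.0 CPM, and Ncstn, at 66.3 and 70.1 CPM, lay below both WT VEH libraries without passing the test (adjusted p = 0.22 and 0.30 in edgeR), as did Psenen at 25.6 and 26.6 CPM (adjusted p = 0.64). The libraries of TAU MOL and WT VEH did not overlap for 52.5% of all genes. Adam10 was at 68.3 and 64.1 CPM, above both WT VEH libraries, with a log2 difference of 0.19 (adjusted p = 0.18 in edgeR).

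The comparison of TAU MOL with TAU VEH asks what CSP-TTK21 changed beyond its carrier. None of the 9 members was called, and 0% of the 16820 genes were called by edgeR, while 1064 genes had an unadjusted p under 0.05, 0 of them members, and DESeq2 called 56 genes and 0 members. Aplp1 was at 2050 and 2137 CPM in TAU MOL against 1871 and 1984 CPM in TAU VEH, without overlap. Its log2 difference was 0.12 (95% interval -0.04 to 0.28), and the groups also stood apart for 38.9% of all genes. Psenen, at 25.6 and 26.6 CPM against 22.5 and 24.2 CPM, had the highest log2 difference of the members at 0.16 (95% interval -0.03 to 0.35). The other 7 genes overlapped between TAU MOL and TAU VEH. The log2 difference of App was -0.01 (95% interval -0.18 to 0.16) and that of Bace1 -0.02 (-0.19 to 0.15). For all 9 members the intervals ended between -0.22 and 0.35.

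The effect of learning was read from WT VEH against WT VEH_HC. None of the 9 members was called by edgeR or DESeq2, against 8.40% of all genes in edgeR, and 1 member, App, had an unadjusted p under 0.05, as did 27.8% of all genes. App was at 2314, 1986 and 2073 CPM in the home cage libraries and at 1839 and 1903 CPM after training, without overlap. Its log2 difference was -0.18 (95% interval -0.34 to -0.03, unadjusted p = 0.026 and adjusted p = 0.13 in edgeR), and App lay lower in all 6 trained libraries, of any genotype, than in the 3 home cage libraries. Aplp2 (521 to 585 CPM trained, 596 to 626 CPM home cage) and Ncstn (62.9 to 76.7 CPM trained, 80.3 to 83.2 CPM home cage) stood apart in the same direction. Adam10 stood apart in the other, with 57.0 to 68.3 CPM trained against 48.7 to 55.4 CPM home cage. These 4 of 9 members stand beside 25.5% of all genes that split in either direction. With the correction for G and C content and length, the log2 difference of Adam10 between WT VEH and WT VEH_HC went from 0.15 to 0.005. Those of App, Aplp2 and Ncstn were then -0.14, -0.11 and -0.09. Bace1, at 111.7 and 112.0 CPM in the trained WT libraries, lay just under home cage replicate 3 at 112.3 CPM and below the others at 131 and 128 CPM. Without home cage replicate 3 it was called, at a log2 value of -0.21 (adjusted p = 0.031 in edgeR), and the number of genes called rose from 1413 to 2798. For Aplp1 the log2 difference was 0.03 (95% interval -0.12 to 0.17).

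Between the 4 trained THY-Tau22 libraries and the 5 WT libraries of the learning experiment, Aplp1, Psen2 and Ncstn were lower in every THY-Tau22 library and Adam10 was higher. This was so for 13.3% and 10.0% of all genes. App, Aplp2, Bace1, Psenen and Itm2b overlapped in this split.

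In the untrained mice none of the 9 members was called, against 0.0245% of 16324 genes, which is 4 genes. At an unadjusted p under 0.05 there were 803 genes (4.92%), 0 of them members, and DESeq2 called 40 genes and 0 members. Aplp1 was at 2898 and 1734 CPM in THY-Tau22 and at 3213, 2668 and 2678 CPM in WT. The THY-Tau22 libraries lay on either side of 2 of the WT libraries, and the log2 difference of -0.30 (95% interval -0.75 to 0.15) was not larger than the spread. It was 0.02 without THY-Tau22 replicate 2 and -0.69 without THY-Tau22 replicate 1. The same library 2, whose rho with G and C content was -0.60, was also the lowest for Psen2 (15.0 CPM, the other 4 between 18.4 and 20.0) and Psenen (25.7 CPM, the others between 32.8 and 37.4), and the highest for Adam10 (80.3 CPM, the others between 59.7 and 68.2). App was at 1738 and 1734 CPM in THY-Tau22 and at 1910, 1644 and 1812 CPM in WT, which overlapped. Aplp2, Bace1, Ncstn and Itm2b had log2 differences between -0.07 and 0.01.

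Whether the genotype difference was the same in the learning and the basal experiment was tested in 1 fit over all 14 libraries. Training, injection, the CSP given to the THY-Tau22 mice alone and the experiment itself cannot be told apart in this contrast. None of the 9 members passed, in edgeR or DESeq2 or at an unadjusted p under 0.05, and 22 of 17026 genes did (0.129%), while 1325 had an unadjusted p under 0.05 and DESeq2 called 121. For Aplp1 the trained difference was lower than the untrained one by a log2 value of -0.14 (95% interval -0.65 to 0.38), for Adam10 it was higher by 0.18 (-0.14 to 0.50), and for App by 0.07 (-0.22 to 0.35). These intervals are wide, and the call of Aplp1 in trained mice is not shown to differ from its value in untrained mice. Over the 14 fits that each left out 1 library this value of Aplp1 ran from -0.48 to 0.31, so its sign was not settled.

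Among the secretase genes Aph1a, Aph1b, Aph1c, Bace2, Adam9 and Adam17, 1 was called in TAU VEH versus WT VEH, beside 14.4% of all genes. Aph1a, a scaffold subunit of gamma-secretase, was at 67.8 ± 1.78 CPM in WT VEH and 48.5 ± 1.56 CPM in TAU VEH (SD, n = 2 per group). Its log2 fold change was -0.48 (SE 0.08, adjusted p = 0.0031 in edgeR). With the correction for G and C content its log2 value was -0.39 (adjusted p = 0.0386 in edgeR), so the call held under this correction. In TAU MOL it was at 52.1 ± 0.271 CPM, a log2 fold change of -0.38 against WT VEH (adjusted p = 0.0245 in edgeR). With the correction the log2 value was -0.32 and the adjusted p of 0.16 missed the limit. After training Aph1b rose from 16.7 ± 0.932 to 22.4 ± 2.07 CPM (log2 fold change 0.42, adjusted p = 0.0180 in edgeR), a value that is uncertain because Aph1b has a near-identical copy, Aph1c, with which it can share reads.

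The 18 genes that bind App or sort it between membranes held 4 called lower and 0 higher in TAU VEH versus WT VEH (beside 10.8% and 3.61% of all genes), with a median log2 fold change of 0.04. Lrp1, an endocytic receptor that carries App and Abeta, fell from 782 ± 61.4 to 538 ± 10.2 CPM (log2 fold change -0.54, adjusted p = 0.0020 in edgeR), and Apba3, an adaptor of the App tail, by 0.38 on the log2 scale (adjusted p = 0.0091). Neither was called with the correction (log2 values -0.36 and -0.04). After training 3 of the 18 rose and 2 fell, beside 8.40% of all genes called in either direction. The retromer subunit Vps35 rose from 71.3 ± 9.33 to 89.5 ± 2.22 CPM (log2 fold change 0.33, adjusted p = 0.0482) and the clathrin assembly factor Picalm by 0.28 (adjusted p = 0.0345). The adaptor Apba2 fell by 0.36 (adjusted p = 0.0179) and the sorting receptor Sort1 by 0.25 (adjusted p = 0.0406), all in edgeR. With the correction Apba2 was still called (-0.31, adjusted p = 0.0384), whereas Vps35 (0.14), Picalm (0.17) and Sort1 (-0.17) were not.

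Among 5 genes of the BRI family and modulators of gamma-secretase, Itm2c, the brain paralog of Itm2b, fell from 1463 ± 137 to 1123 ± 91.4 CPM in TAU VEH (log2 fold change -0.38, adjusted p = 0.0098 in edgeR) and was at 1125 ± 75.3 CPM in TAU MOL (-0.38, adjusted p = 0.0240). With the correction it was not called (log2 values -0.16 and -0.22). Itm2b itself had log2 values of -0.02 and -0.05 in these comparisons without the correction and -0.15 in both with it, none of them called. Rer1, a retrieval receptor that acts in gamma-secretase assembly, rose after training (log2 fold change 0.32, adjusted p = 0.0276 in edgeR), and just missed the limit with the correction (0.27, adjusted p = 0.0504).

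Of 14 further substrates of the secretases, 4 fell and 3 rose in TAU VEH versus WT VEH (beside 10.8% and 3.61% of all genes), with a median log2 fold change of -0.05. Sez6, a neuronal Bace1 substrate, fell from 418 ± 26.6 to 241 ± 18.5 CPM (log2 fold change -0.80, adjusted p = 0.0010 in edgeR, and -0.58 with adjusted p = 0.0190 after the correction). Efnb2, an ephrin, fell from 25.9 ± 1.26 to 18.2 ± 0.0993 CPM (-0.51, adjusted p = 0.0038, and -0.51 with adjusted p = 0.0148 after the correction). The receptor Epha4 and the adhesion molecule Chl1 rose by 0.31 and 0.25 (adjusted p = 0.0214 and 0.0290), values that were 0.20 and 0.09 and not called after the correction. Sez6 was also lower in TAU MOL than in WT VEH, at 288 ± 5.84 CPM (-0.54, adjusted p = 0.0134, and -0.39 with adjusted p = 0.17 after the correction). None of the genes described from these lists was called by edgeR in TAU MOL versus TAU VEH or in the untrained mice.

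Of 8 genes that degrade or carry Abeta, 1 was called in TAU VEH versus WT VEH, beside 14.4% of all genes. It was Ttr, the thyroid hormone carrier transthyretin, with 187 ± 23.5 against 1735 ± 541 CPM (log2 fold change -3.21, adjusted p = 0.0056 in edgeR). In the home cage libraries it was at 78.3 ± 76.1 CPM (SD, n = 3), so that the log2 fold change with training was 4.47 (adjusted p = 0.0015). Ttr is also a marker of the choroid plexus, the epithelium next to the hippocampus, and all 14 choroid plexus markers were called in both comparisons in the directions of Ttr. Their summed level was 2195 to 3169 CPM in WT VEH, 159 to 417 in WT VEH_HC, 462 to 541 in TAU VEH, 1073 to 1184 in TAU MOL, 595 to 714 in the untrained WT and 702 to 1989 in the untrained THY-Tau22 libraries. No marker was at 0 in all libraries of an experiment. The mean log2 CPM of these 14 markers, rather than their sum, was also used as a covariate. With it edgeR called 0 genes in TAU VEH versus WT VEH and 0 in WT VEH versus WT VEH_HC (2320 and 786 at an unadjusted p under 0.05). The calls after training named here were thus lost. Aplp1 then had a log2 value of -0.30 in TAU VEH versus WT VEH (95% interval -0.66 to 0.05). Between WT VEH and WT VEH_HC, whose choroid plexus levels lay furthest apart, Aplp1 had a log2 difference of 0.03. TAU VEH, with choroid plexus levels just above those of the home cage libraries, had Aplp1 at 1871 and 1984 CPM against 2487 CPM or more there. TAU VEH and WT VEH_HC also differ in genotype, training and carrier, and they were not tested against each other. The part of choroid plexus content in the values of Aplp1 was not tested. Ece2, an endopeptidase that degrades Abeta, fell after training (log2 fold change -0.39, adjusted p = 0.0225).

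The tissue carried the markers of hippocampal cells in every library. The 10 neuron markers summed to 7131 to 8413 CPM in the learning and 7661 to 8363 CPM in the basal libraries, and in TAU VEH versus WT VEH 3 of them were called lower and 1 higher, beside 10.8% and 3.61% of all genes. The 8 astrocyte markers summed to 4963 to 5064 CPM in TAU VEH and 3937 to 4219 CPM in WT VEH, with 3 called higher. Summed levels were 433 to 486 against 443 to 454 CPM for the 8 microglia markers, with 1 called lower, and 7433 to 7575 against 7742 to 7966 CPM for the 8 oligodendrocyte markers, with 0 called. The 8 endothelial markers summed to 143 to 155 against 178 to 190 CPM, with 0 called. In TAU MOL the neuron markers summed to 7131 to 7228 CPM, against 7431 to 8147 CPM in WT VEH, the astrocyte markers to 4734 to 5308 CPM and the endothelial markers to 133 to 153 CPM. The part of these shifts in the members' values was not tested.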

How the data were processed

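RNA-seq was done on 14 libraries of dorsal hippocampus from mice aged 8 months. Libraries were made with a kit that selects poly-A RNA and does not mark strand. The authors aligned reads to mm9 with TopHat2 2.0.10 and Bowtie2 2.1.0, counted reads with a unique alignment per Ensembl gene (HTSeq 0.5.4p3), and deposited these whole-number counts without normalization. The authors also deposited a normalized signal, in which every library was scaled by a factor of its own, and which entered no test. For the learning experiment 138 lines without values were left out, and 0 sample columns were unassigned. Further mice that the study's methods exclude were not analysed here.

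Groups follow the sample labels. Depth ran from 24693713 to 52180305 counts per library. Raw counts were filtered with filterByExpr, scaled with TMM and tested with edgeR 4.0.16 in R 4.3.3 by the quasi-likelihood F test with Benjamini-Hochberg adjustment over all genes tested. The 5 basal libraries, the 9 learning libraries and, for the test between genotype differences, all 14 libraries were each fitted together. Intervals are 95% intervals of these fits. The limits of 0.05 on the adjusted p and 0.2 on the log2 fold change follow the study's methods. Replicates varied with a coefficient of 0.129 (basal) and 0.0840 (learning), each a common value over all genes tested.

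Exon lengths, G and C content and positions came from the NCBIM37 (mm9) annotation, and promoter windows from RefSeq with GRCm38.p6 coordinates. The alternatives were DESeq2 1.42.0, its size factors in edgeR, library size alone, testing each gene that had any count, a minimum mean of 10 counts, only the groups compared, the replicate number as a block, loess correction for G and C content and length (span 0.3), both of these together, a covariate from 14 choroid plexus markers (their mean log2 CPM, pseudocount 0.05), no limit on the fold change, and leaving out each library. Tests were run on simulated counts with known changes. The 9 genes, the pathway and marker lists, the tests and the alternatives were chosen with earlier results of these data known. Of each pathway list, up to 2 called genes with the highest and 2 with the lowest fold change in a comparison were named, and for App, Bace1 and Itm2b the 2 genes nearest in pattern. A few of the genes so chosen are not reported here.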

Additional observations from a re-analysis of the deposited data

How the results depend on the processing

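Under the alternatives, 1041 of 1080 values of single members stayed on their side of the limits, 25 lost a call, 14 gained one and 0 called values changed sign. Of the 1041, 94 were uncalled values that changed sign. Most of the 1080 values were not called in the main fit, so the share that stayed says little about the calls. The 25 lost calls were all of Aplp1 and Psen2, 17 in TAU VEH versus WT VEH and 8 in TAU MOL versus WT VEH. In TAU VEH versus WT VEH, where 2 members were called, 1 was called with DESeq2's size factors in edgeR and 1 with every gene of at least 1 count tested. With only the groups compared 5 were called (Ncstn, Psenen and Adam10 in addition), among 3399 genes. The number was 0 with the correction for G and C content and length (466 of all genes), 0 with the choroid plexus covariate (0 of all genes), and 1 to 4 when 1 library was left out (915 to 2944 of all genes), where Aplp1 was called in all 9 fits. In TAU MOL versus WT VEH the 1 call became 0 with the correction (16 of all genes) and 0 with the covariate (2 of all genes), and was 0 to 1 without 1 library (2 to 1379 of all genes). With library size alone, Adam10 was called there and Aplp1 was not, and in WT VEH versus WT VEH_HC the calls went from 900 higher and 513 lower to 1278 higher and 434 lower. In WT VEH versus WT VEH_HC the number was 0 to 1 without 1 library (73 to 2798 of all genes), while 310 of all genes were called with only the groups compared and 0 with the covariate. In the untrained mice and in TAU MOL versus TAU VEH 0 members were called under any alternative run, while the count of all genes ran from 1 to 125 and from 0 to 233. For the change of the genotype difference it was 22, with 121 in DESeq2 764 without untrained THY-Tau22 replicate 2, 7 without WT VEH replicate 1 and 0 with the covariate, and 0 members in each. The cause of these shifts was not tested.

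With the replicate number as a replicate block, 5 members (Aplp1, Psen2, Ncstn, Psenen and Adam10) were called in TAU VEH versus WT VEH among 2794 genes, 1 (Bace1) in WT VEH versus WT VEH_HC among 3000 genes, and 37 of all genes in the untrained mice. With the block and the correction together 0 members were called in TAU VEH versus WT VEH and 0 in TAU MOL versus WT VEH. The deviations of libraries with the same number correlated between -0.16 and 0.24, and not every pair above 0.1, so the libraries were taken to share only a number.

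Each member had 446 counts or more in each library, and each group had 2 or 3 libraries. The shares of depth and of the number of libraries in the width of the intervals were not compared.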

Other observations

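Some genes outside the amyloid pathway had a pattern over the 9 learning libraries close to that of App, Bace1 or Itm2b. Likeness was the root mean square difference in log2 CPM after each gene was centred on its own mean, among 9340 genes averaging 10 CPM or more. For App, whose log2 values spanned 0.37, the nearest genes were Rgnef (difference 0.028, mean 69.8 CPM) and Paf1 (0.029, 50.9 CPM). For Bace1, which spanned 0.23, the nearest was Gle1 (0.022, 47.4 CPM). For Itm2b, which spanned 0.31, they were Khdrbs3, an RNA-binding protein (0.023, 143 CPM), and Ppp2r2b, a regulatory subunit of protein phosphatase 2A (0.032, 69.7 CPM). These distances are a description of 9 libraries that share depth and base composition effects.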
